A study of Mus musculus with 9 samples.

Results

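Atrial heart muscle differs from ventricular muscle in its contractile proteins, its secreted hormones and its potassium channels. The genes examined here are 8 transcripts named for that difference: the myosin light chains Myl4 and Myl7, the calcium pump inhibitor Sln, the myosin-binding protein Mybphl, the growth factor Bmp10, the lipid transfer protein Stard10, and the channel genes Kcnj3 and Kcnj5. They were chosen by symbol from tables of 15779 genes, with results of these data already in view. Of the 8, 4 matched a row by symbol (Kcnj3, Kcnj5, Stard10 and Myl4), and Myl7, Sln, Mybphl and Bmp10 were not analysed here. Because the choice used measured values, the levels and fold changes of these 4 genes are given as descriptions, with no p-value. Their calls in the fits over all genes are counted only beside the share of all genes called. The lists of other genes and the tests were also chosen with earlier results known. The adjusted p-values given for listed genes do not take that choice into account. The question is whether Kcnj3 followed the other atrial transcripts or the genotype. In these libraries Kcnj3, Kcnj5 and Stard10 were lower in the saline mutants than in wild type, with the treated means in between. Myl4, at values of 1 to 5, was higher in the saline mutants. Of 9 other atrial genes tested, 3 were called higher there (Nppa, Dkk3 and Pam), 2 lower (Sbk2 and Tbx5) and 4 were not called. Of all genes tested, 4.56% were called higher and 3.14% lower. Tbx5 was called in 7 of 16 alternatives to the fit. The atrial transcripts analysed thus lay on both sides of wild type. The 3 groups did not overlap for Kcnj3, and neither did they for Stard10. Groups also did not overlap for 21.6% of all genes tested in saline mutants against wild type. The shares were 9.82% in treated against saline mutants and 14.6% in treated mutants against wild type. Kcnj3 was chosen with these values in view, so nothing is read from its separation.

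The libraries came from hearts of adult C57BL/6J mice, 3 in each of 3 groups: wild-type mice given saline, mice homozygous for the Mybpc3 mutation R946X (Mybpc3 R946X/R946X) given saline, and homozygous mutant mice given exABE8e at the level the labels call high dose. Mybpc3 encodes cardiac myosin-binding protein C, and R946X is a premature stop codon. The design text describes adenine base editors carried by the virus AAV9 and expressed in cardiomyocytes, but the labels do not define exABE8e further and give no dose in figures, no sex and no age. PolyA RNA was taken from 20 to 30 mg of flash-frozen heart, and no label says which chamber a piece came from. The treated group differs from the saline mutants in the editor and in the virus together, and none of the 3 groups had virus without editor.

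Kcnj3 and Kcnj5 encode GIRK1 and GIRK4, the subunits that join into the acetylcholine-activated inward rectifier channel of atrial and pacemaker cells. Acetylcholine acting on the muscarinic receptor M2, or adenosine acting on the A1 receptor, frees G protein beta-gamma subunits, which open the channel and slow the heart. Myl4 encodes the essential light chain of atrial myosin, which the fetal ventricle also makes, while the adult ventricle uses Myl3. Stard10 encodes a protein with a START domain that binds and transfers phospholipids.

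On GRCm38 (mouse build mm10) with the GENCODE M21 annotation, Kcnj3 (ENSMUSG00000026824.11) lies at chr2:55435970-55598145 on the plus strand and Kcnj5 (ENSMUSG00000032034.6) at chr9:32314707-32344350 on the minus strand. Stard10 (ENSMUSG00000030688.15) lies at chr7:101317086-101346626 and Myl4 (ENSMUSG00000061086.12) at chr11:104550663-104595753, both on the plus strand. All 4 are protein-coding genes. Kcnj3 shares chromosome 2 with the mutated gene, and 35.5 Mb lie between it and Mybpc3. Within 2 Mb of Kcnj3, the genes analysed were Nr4a2 and Gpd2, and limma called neither of them in any of the 3 comparisons. On the opposite strand to Myl4 lies Gm22000, which also has values, and the strand setting of the counting is not given in the sources used here, so reads of Myl4 and Gm22000 may not have been separated.

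The 250 bases upstream of the RefSeq start (GRCm38.p6) are shown for the 3 genes that were lower in the saline mutants, since they are the regions in which members that moved together could be compared. They are read 5′ to 3′ on the gene's own strand. Capitals mark the T-box site in Kcnj3 (chr2:55435720-55435969, plus strand) and the GC box in Kcnj5 (chr9:32344345-32344594, minus strand), and Stard10 (chr7:101316836-101317085, plus strand) holds none of the motifs searched.
Kcnj3: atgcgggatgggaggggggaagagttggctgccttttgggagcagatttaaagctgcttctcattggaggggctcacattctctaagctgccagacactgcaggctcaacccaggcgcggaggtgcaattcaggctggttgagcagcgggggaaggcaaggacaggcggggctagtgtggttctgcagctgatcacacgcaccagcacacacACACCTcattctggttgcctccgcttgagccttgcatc
Kcnj5: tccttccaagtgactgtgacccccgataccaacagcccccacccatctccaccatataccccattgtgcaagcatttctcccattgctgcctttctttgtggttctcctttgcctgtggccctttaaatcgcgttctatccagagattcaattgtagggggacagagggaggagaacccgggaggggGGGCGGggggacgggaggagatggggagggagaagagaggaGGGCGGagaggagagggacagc
Stard10: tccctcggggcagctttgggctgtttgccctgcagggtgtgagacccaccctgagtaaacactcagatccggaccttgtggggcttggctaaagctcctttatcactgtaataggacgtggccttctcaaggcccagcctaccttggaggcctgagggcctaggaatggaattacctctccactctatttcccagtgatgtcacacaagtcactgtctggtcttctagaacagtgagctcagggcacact
Searched on both strands were the GATA core AGATAA, the T-box site AGGTGT, the MEF2 motif, the left part of RE1 TCAGCACC, the TATA box TATAAA and the GC box GGGCGG. Kcnj3 held 1 match to AGGTGT, on the strand opposite to the gene, and 11.8% of 32851 promoters of this length hold one. Kcnj5 held 2 matches to GGGCGG, a motif in 32.7% of promoters. The 3 promoters thus shared no match to any motif in the set. A match is a description of the letters and not evidence of binding.

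Each deposited value is a whole number on a scale where a library sums to between 999152 and 999382. The unit is not named, and the depth in reads is unknown, so precision rests on the 3 libraries per group. Cardiomyocyte markers (Tnnt2, Myh6, Actc1, Ryr2 and Tnni3) summed to between 34820 and 45706 in every library. The sum covers markers that differed in both directions. In saline mutants Tnni3 was at 70.7%, Tnnt2 at 79.8% and Actc1 at 125% of wild type, each without overlap. Myh6 and Ryr2 overlapped, and limma called none of the 5. Groups did not overlap for 21.6% of all genes tested in that comparison. Mybpc3 checked the labels: wild type ranged from 1510 to 2039, saline mutants from 133 to 186 and treated mutants from 1024 to 1374. Xist, which is transcribed from the inactive X chromosome of females, had values in 3 libraries (wild type replicate 1 at 119, saline mutant replicate 3 at 351 and treated replicate 1 at 39) and was listed at 0 in the other 6. Treated replicate 1 also had values for the Y-linked genes Ddx3y (38), Eif2s3y (37), Uty (10) and Kdm5d (10). All of these were listed at 0 in wild type replicate 1 and saline mutant replicate 3. Treated replicate 1 thus held Xist and Y-linked transcripts together, and the reason was not tested. Sex is not in the labels, and results are therefore also given without the 3 libraries with Xist. Nothing in the labels names separate animals, so the p-values below measure the spread between these samples, which may be technical. Where hearts are counted or compared below, each stands for 1 library and not for a known separate animal.

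Kcnj3 showed the widest separation of the 4 genes. Wild-type hearts had values of 54, 48 and 51, saline mutants 10, 11 and 9, and treated mutants 23, 30 and 28. The 3 groups did not overlap, and the treated hearts lay between the saline groups. The mean of the saline mutants was 19.6% of that in wild type (10 ± 1.0 against 51.0 ± 3.0, SD, n = 3), and that of treated mutants 52.9% (27.0 ± 3.61, SD, n = 3). The difference in mean log2(value + 1) was -2.24 (SE 0.12) for saline mutants against wild type, 1.34 (SE 0.15) for treated against saline mutants, and -0.90 (SE 0.12) for treated mutants against wild type. In bulk tissue, fewer cells of a type and less RNA per cell cannot be told apart. Without the 3 libraries with Xist these differences were -2.14, 1.38 and -0.75.

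Kcnj5, whose product GIRK4 carries GIRK1 to the cell surface, was lower by less. Wild-type hearts had 74, 82 and 88, saline mutants 46, 50 and 44, and treated mutants 50, 57 and 66. Wild-type hearts stood above both mutant groups, while the lowest treated heart had the same value as the highest saline mutant. The saline mutant mean was 57.4% of the wild-type one (46.7 ± 3.06 against 81.3 ± 7.02, SD, n = 3), a difference of -0.79 (SE 0.11) on the log2(value + 1) scale. Treated mutants were at 70.9% (57.7 ± 8.02, SD, n = 3), with a difference of -0.49 (SE 0.13) from wild type and 0.29 (SE 0.13) from saline mutants.

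In these libraries the values of Kcnj3 and Kcnj5 did not keep their proportion. Both genes were chosen with these values in view, so the ratios are a description and nothing is read from their separation. The ratio of the Kcnj3 value to the Kcnj5 value in wild type was 0.73, 0.585 and 0.58. It was 0.217, 0.22 and 0.205 with the mutation and saline, and 0.46, 0.526 and 0.424 with treatment. No ratio of one group fell within the range of another. The group means were 0.632 ± 0.0851, 0.214 ± 0.00827 and 0.47 ± 0.0518 (SD, n = 3), so the saline mutants had the least spread. A ratio within a library does not depend on how the library was scaled.

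Stard10 had values of 19, 16 and 15 in wild type, of 6, 3 and 6 in mutants given saline, and of 10, 9 and 8 in treated ones. As for Kcnj3, the 3 groups did not overlap and the treated hearts were in between. The saline mutant mean was 30.0% of the wild-type one (5.0 ± 1.73 against 16.7 ± 2.08, SD, n = 3), and treated mutants at 54.0% (9.0 ± 1.0, SD, n = 3). The log2 differences were -1.60 (SE 0.23) for saline mutants against wild type, 0.78 (SE 0.24) for treated against saline mutants and -0.82 (SE 0.14) for treated mutants against wild type.

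Myl4 went the other way and was near the lowest value that rounding allows. It was at 1 in each wild-type heart, at 3, 3 and 5 with the mutation and saline, and at 2, 2 and 3 after treatment. All 6 mutant hearts were above all 3 wild-type hearts, but saline and treated mutants met at 3. The log2 differences were 1.19 (SE 0.22) for saline mutants against wild type, -0.47 (SE 0.23) for treated against saline mutants and 0.72 (SE 0.19) for treated mutants against wild type. Steps of 1 in so low a value are large on a log scale, and a rounded value of 1 can stand for a range of levels. As a share of Myl3, the ventricular counterpart, Myl4 was at 0.0204% ± 0.00123 in wild type, 0.0729% ± 0.0276 with the mutation and saline, and 0.0484% ± 0.0124 after treatment (SD, n = 3). Myl3 itself lay between 4172 and 5534 in all 9 libraries. On a scale that each library shares, the atrial light chain was thus listed at 1 to 5 in every heart piece.

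**Figure D1:**
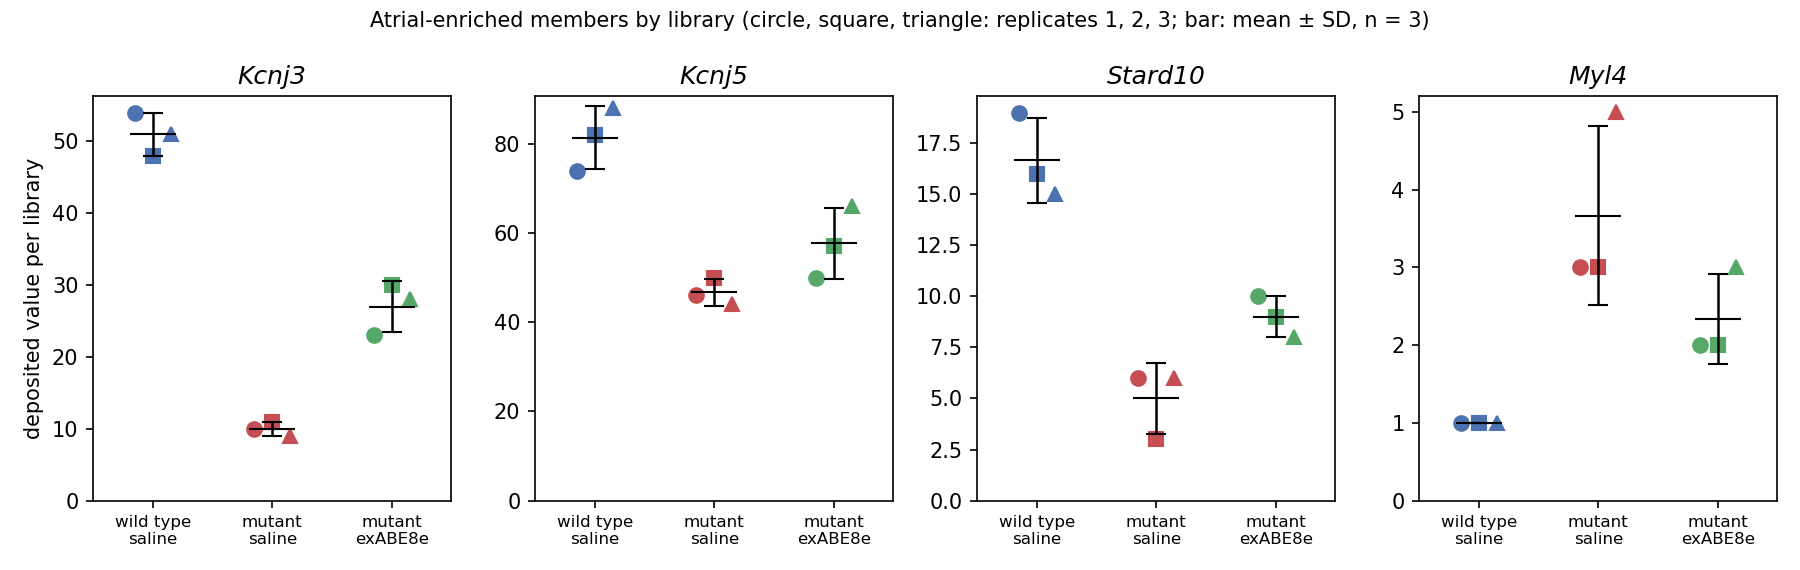
Deposited value per library (vertical axis, libraries sum to nearly the same total) for Kcnj3, Kcnj5, Stard10 and Myl4 in the 3 groups; symbols are replicates 1 to 3 and bars the mean ± SD (n = 3). Kcnj3, Kcnj5 and Stard10 are highest in wild type, Myl4 is lowest there at 1, and the treated means lie between the saline groups for all 4.

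All 4 genes passed the filter on low values (a mean of at least 1 over the 6 libraries compared), Myl4 at values of 1 to 5. In the fit over all genes (limma, called at a Benjamini-Hochberg adjusted p under 0.05), 1050 of 13632 genes were called between saline mutants and wild type, which is 7.7% of those tested, and groups did not overlap for 21.6%. All 4 members were among the called genes (Kcnj3, Kcnj5 and Stard10 lower, as were 3.14% of all tested genes, and Myl4 higher, as were 4.56%) and among those without overlap. Results of all 3 comparisons were in view when the members were chosen, so nothing is read from their calls or from groups without overlap in any of the 3. Myl4 was not called without wild type replicate 1, without saline mutant replicate 3 or without the 3 libraries with Xist. Of all called genes 59.2% were higher, against 53.3% with median-of-ratios and 47.2% with upper-quartile scaling.

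Between treated and saline mutants, 2 of 13636 genes were called (0.0147%), 1130 had an unadjusted p under 0.05, and the groups did not overlap for 9.82%. None of the 4 members was called, and 2 (Kcnj3 and Stard10) did not overlap. Kcnj3 was called in 7 of 16 alternatives. Between treated mutants and wild type, 134 of 13554 genes were called (0.989%) and groups did not overlap for 14.6%. Kcnj3 and Stard10 were called lower (0.125% of genes were), Kcnj5 and Myl4 were not called, and all 4 had groups without overlap. Neither Kcnj3 nor Stard10 was called when any 1 of the 6 libraries was left out. Of the 134 genes 87.3% were higher, against 72% with upper-quartile scaling and 50.6% with limma's own variance trend. The comparisons share libraries in pairs, so their fold changes are not independent of each other.

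The authors' deposited table of selected genes for saline mutants against wild type lists 689 genes, among them Kcnj3, Kcnj5 and Stard10. Kcnj3 is also in the authors' deposited tables of 137 genes for treated against saline mutants and of 317 genes for treated mutants against wild type. The deposited column headed as adjusted equals the unadjusted p, so a place in these tables is not equivalent to a call by limma here. The authors' deposited table gives Kcnj3 log2 fold changes of -2.42, 1.47 and -0.94 in the 3 comparisons, computed without the added 1.

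The position of the treated hearts between the saline groups was expressed on a scale with the saline mutant mean at 0% and the wild-type mean at 100%. Kcnj3 was at 31.7%, 48.8% and 43.9% in the 3 treated hearts (41.5% ± 8.79, SD, n = 3). Stard10 was at 42.9%, 34.3% and 25.7% (34.3% ± 8.57). Kcnj5 was spread more widely, at 9.62%, 29.8% and 55.8% (31.7% ± 23.1), and Myl4 was at 62.5%, 62.5% and 25.0% (50.0% ± 21.7). Mybpc3 itself was at 66.9% ± 11.7. The treated heart lowest for Mybpc3, replicate 1, was also lowest for Kcnj3 and Kcnj5 but highest for Stard10.

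Whether Kcnj3 followed the atrial transcripts was first examined by its distance from them within a library. The index of atrial members could be made only from Myl4 and Stard10. Kcnj3 minus the mean of these on the log2(value + 1) scale averaged 3.13 ± 0.07 for wild type, 1.09 ± 0.48 for saline mutants and 2.28 ± 0.22 for treated mutants (SD, n = 3), with no overlap between groups. That separation rested on Myl4, which differed in the opposite direction. Saline mutants differed from wild type by -2.04 on this measure, beside -2.24 for Kcnj3 itself. The measure thus largely repeats the values of Kcnj3. All 3 genes in it were chosen with these values in view, so nothing is read from the separation. Against Stard10 alone the distances were 1.56 ± 0.12, 0.92 ± 0.58 and 1.48 ± 0.31, and the groups overlapped. The ratio of the Kcnj3 to the Stard10 value was 2.84, 3.0 and 3.4 for wild type, 1.67, 3.67 and 1.5 for saline mutants and 2.3, 3.33 and 3.5 for treated mutants. In saline mutants the ratio was above the wild-type range in 1 library and below it in the other two.

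**Figure D2:**
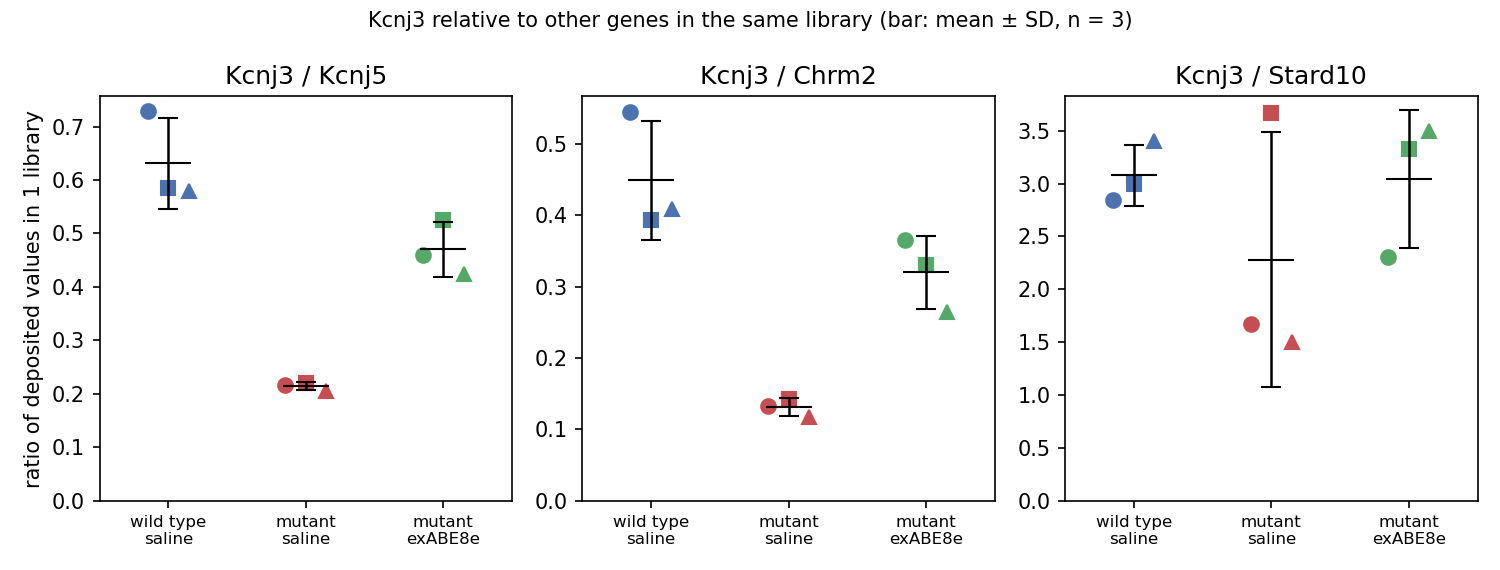
Ratio of the deposited Kcnj3 value to that of Kcnj5, Chrm2 and Stard10 in the same library (vertical axes, no unit, starting at 0), by group; symbols are replicates 1 to 3 and bars the mean ± SD (n = 3). Ratios to Kcnj5 separate the 3 groups, ratios to Chrm2 do so as well, and ratios to Stard10 overlap.

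The libraries within a group share a genotype, so their variation was examined next. After removal of group means, Kcnj3 correlated with the index at r = -0.49 (rho = -0.32) over 9 libraries, with exact permutation p of 0.185 and 0.454 (two-sided, 216 arrangements within groups, Benjamini-Hochberg adjusted over 3 relations 0.278 and 0.681). Without the 2 libraries whose index, after removal of group means, lay farthest from its median, r was 0.06. Kcnj5 gave r = -0.39 (rho = -0.47), with exact permutation p of 0.167 and 0.204 (adjusted 0.278 and 0.611), and r of -0.15 without the 2 farthest libraries. Myl4 and Stard10 gave r = 0.23 with each other (rho = 0.07, exact permutation p of 1.0 for both, adjusted 1.0), and -0.58 without the 2 farthest. None of the 3 passed the adjusted threshold, and Myl4 had no spread among wild-type hearts.

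Other genes known for higher levels in atria did not move in 1 direction. Of 9 tested from a list of 10, 3 rose in saline mutants against wild type (Nppa, Dkk3 and Pam), 2 fell (Sbk2 and Tbx5) and 4 were not called (Nr2f1, Nr2f2, Gja5 and Kcna5). Of all genes tested in this comparison, 4.56% were called higher and 3.14% lower. The same shares stand beside the counts for the lists below. The median log2 difference of the list was -0.00, beside 0.07 for all genes tested. Nppa, the atrial natriuretic peptide gene that stressed ventricles also express, rose by 3.95 (SE 0.43, limma adjusted p 0.0011), from 61, 42 and 45 to 356, 858 and 1489. Among those 3 saline mutants Nppa spanned 356 to 1489, while Kcnj3 spanned 9 to 11. Pam, which encodes the enzyme that amidates peptide hormones and is abundant in atrial granules, rose by 0.84 (SE 0.11, limma adjusted p 0.00205). Dkk3, a secreted protein of the Dickkopf family, rose by 1.89 (SE 0.31, limma adjusted p 0.00763) and lost the call with limma's own variance trend.

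Sbk2, a kinase gene, fell by 2.16 (SE 0.30, limma adjusted p 0.00305), from 5, 5 and 4 to 1, 0 and 0, with 2, 3 and 3 in treated hearts. It lost the call with a pseudocount of 0.1 and without the 3 libraries with Xist. Tbx5, the T-box factor whose site was among the motifs searched, fell by 0.52 (SE 0.12, limma adjusted p 0.0366), and lost the call when any 1 of the 6 libraries was left out, without the 3 libraries with Xist, with all 9 libraries in 1 fit and with a replicate block. Gja5, the gap junction gene of atria and the conduction system, was at 6 in all 6 saline hearts and at 8, 8 and 7 in treated hearts. Nr2f2, a nuclear receptor that sets atrial identity, ranged from 16 to 22 in wild type, 14 to 23 in saline mutants and was 17 in each treated heart. In treated against saline mutants none of the 9 was called by limma (2 had an unadjusted p under 0.05), and in treated mutants against wild type Nppa alone was called (1.98, SE 0.21, limma adjusted p 0.0196, lost without any 1 of the 3 wild-type libraries or treated replicate 2, and with limma's own variance trend). Measured from the mean log2 level of this list, Kcnj3 was at 1.40 ± 0.08 for wild type, -1.28 ± 0.34 for saline mutants and 0.12 ± 0.26 for treated mutants (SD, n = 3), without overlap. Saline mutants differed from wild type by -2.68 on this measure, beside -2.24 for Kcnj3 itself. The measure thus largely repeats the values of Kcnj3, and nothing is read from the separation.

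Of 8 ventricular genes tested (Myl2, Myl3, Irx3, Irx4, Irx5, Hey2, Pln and Kcnip2), Kcnip2 was the 1 called by limma in saline mutants against wild type. None was called in the comparisons with treated hearts. An unadjusted limma p under 0.05 was found for 4 of the 8 in saline mutants against wild type. The counts were 1 in treated against saline mutants and 2 in treated mutants against wild type. Kcnip2 encodes the accessory subunit of the transient outward potassium channel. It fell by 0.94 (SE 0.11, limma adjusted p 0.00139), from 206, 224 and 217 to 120, 119 and 99, and was at 145, 180 and 174 in treated mutants. Myl2, the ventricular regulatory light chain, ranged from 5360 to 6831, 6104 to 6354 and 5095 to 6667 in the 3 groups. The median log2 difference of the list in saline mutants against wild type was -0.05. Hcn4, the main channel of the pacemaker current in the sinus node, was at 5 to 6 in wild type and 3 to 5 in saline mutants, and was not called.

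Partners of the channel changed in part. Of 14 tested genes for receptors, G proteins and regulators, 2 fell (Chrm2 and Rgs6), 1 rose (Gnao1) and 11 were not called in saline mutants against wild type, with a median log2 difference of -0.06. Chrm2, the M2 receptor gene, fell by 0.58 (SE 0.11, limma adjusted p 0.016), from 99, 122 and 125 to 75, 77 and 77. Treated hearts were at 63, 91 and 106, a range that covers that of the saline mutants. Rgs6, a brake on the channel that speeds G protein shut-off, fell by 0.75 (SE 0.14, limma adjusted p 0.0146), from 26, 30 and 22 to 14, 15 and 16. Both calls were lost when single libraries were left out: Chrm2 without wild type replicate 2 or 3 or saline mutant replicate 2 (and with all 9 libraries in 1 fit), and Rgs6 without wild type replicate 1 or 2, saline mutant replicate 2 or the 3 libraries with Xist.

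Gnao1, a G protein alpha subunit, rose by 1.54 (SE 0.14, limma adjusted p 0.000496), from 26, 31 and 27 to 70, 86 and 96. Treated hearts stayed near the saline mutants at 83, 65 and 58, and were above wild type (1.25, SE 0.15, limma adjusted p 0.0258, lost without any 1 wild-type library, treated replicate 2 or the 3 libraries with Xist, with the variance trend and with a replicate block). Adora1, the A1 adenosine receptor gene, was at 20, 18 and 22, then 14, 17 and 15, then 15, 15 and 20 in the 3 groups, and was not called. Gnai2, the G protein subunit that couples M2 receptors, was at 228 to 281 in wild type and 226 to 270 in saline mutants, and Gnb1 at 152 to 177 and 156 to 188. No gene of this list was called by limma in treated against saline mutants, and 0 of 14 had an unadjusted p under 0.05.

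Set against the receptor gene, the values of the subunits differed, which is again a description. The ratio of the Kcnj3 to the Chrm2 value was 0.545, 0.393 and 0.408 for wild type, 0.133, 0.143 and 0.117 for saline mutants, and 0.365, 0.33 and 0.264 for treated mutants, without overlap. The ratio of Kcnj5 to Chrm2 was 0.708 ± 0.0378, 0.611 ± 0.039 and 0.681 ± 0.0977 (SD, n = 3), with treated hearts overlapping both saline groups. In saline mutants the Kcnj5 ratio was below the wild-type range by a smaller factor than the Kcnj3 ratio.

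Other inward rectifiers showed no common direction. Of 6 tested, Kcnj2, the main subunit of the ventricular background rectifier, fell in saline mutants by 0.70 (SE 0.15, limma adjusted p 0.0257), from 38, 45 and 34 to 24, 20 and 27. Kcnj14, an inward rectifier gene at the floor of the scale, rose by 0.97 (SE 0.23, limma adjusted p 0.0381), from 1 in each heart to 2, 4 and 3. The Kcnj2 call was lost without wild type replicate 1 or 2, saline mutant replicate 2 or the 3 libraries with Xist, and with limma's own variance trend, and that of Kcnj14 in 10 of 15 alternatives. Kcnj11, the pore of the ATP-sensitive channel of heart muscle, was at 122 to 144, 111 to 127 and 121 to 130 in the 3 groups, and Kcnj12 at 21 to 28, 19 to 23 and 19 to 25. Neither was called, and none of the 6 was called by limma in the comparisons with treated hearts (0 and 3 had an unadjusted p under 0.05 against saline mutants and wild type). Kcnj8, the vascular subunit of that channel family, was at 58 to 63, 44 to 58 and 43 to 53.

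**Figure D3:**
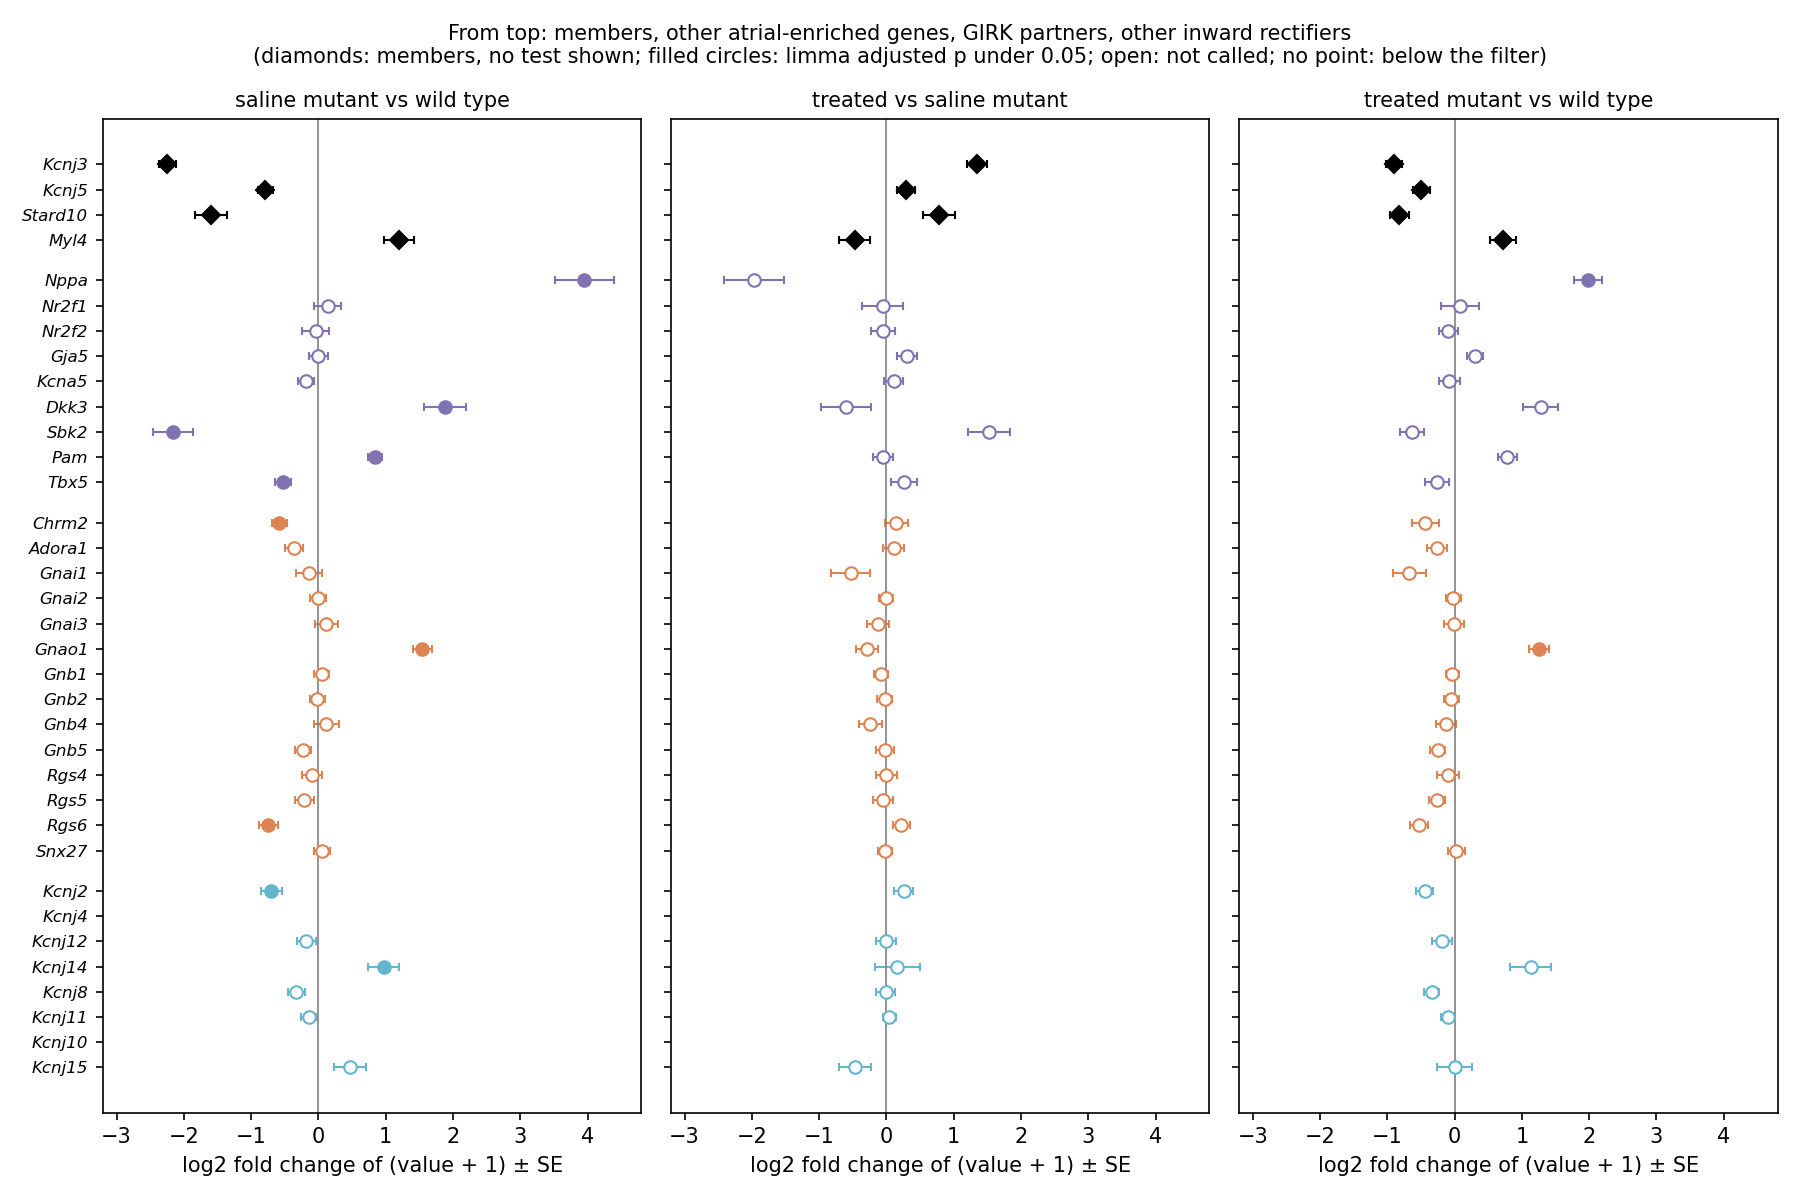
Log2 fold change of (value + 1) with its SE (horizontal axis) in the 3 comparisons for the 4 members analysed (black), other atrial-enriched genes (purple), channel partners (orange) and other inward rectifiers (blue); members are drawn as diamonds without a test, and filled circles have a limma adjusted p under 0.05. Kcnj3 at -2.24 is the lowest member in the first comparison, while the other atrial-enriched genes lie on both sides of 0.

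The families of Myl4, Mybphl, Sln and Bmp10 were also examined. Among light chains and myosin-binding proteins, 9 were tested in saline mutants against wild type, of which 2 rose (Mybpc2 and Myl12a), 2 fell (Mybpc3 and Myl1) and 5 were not called. Mybpc2, the fast skeletal myosin-binding protein, rose by 2.56 (SE 0.13, limma adjusted p 4.68e-05), from 23, 26 and 32 to 167, 165 and 156, and was still above wild type in treated hearts at 84, 100 and 100 (1.78, SE 0.14, limma adjusted p 0.013, lost without wild type replicate 1 or 2). Myl1, the skeletal light chain also made in embryonic heart, fell by 0.95 (SE 0.17, limma adjusted p 0.0117), from 31, 30 and 31 to 12, 15 and 20, against the direction of Myl4. It lost the call without wild type replicate 1 or saline mutant replicate 2, and with limma's own variance trend. For Sln, the other genes of the calcium pump and its small regulators were not called in any comparison (0 of 3 tested by limma, with 2, 1 and 0 at an unadjusted p under 0.05 in the 3 comparisons). Atp2a2, the pump, was at 13060, 13543 and 14131, then 10066, 9271 and 7538, then 12108, 12136 and 11677 in the same order of groups, without overlap. In saline mutants the pump was at 66.0% of wild type, with a limma adjusted p of 0.0513, just above the threshold. Pln, its inhibitor in the ventricle, was at 1312 to 1738, 1092 to 1148 and 1137 to 1300. For Bmp10, none of 15 receptors, SMAD factors and ID targets was called by limma in any comparison (0, 2 and 1 had an unadjusted p under 0.05), and the median log2 difference in saline mutants against wild type was -0.00. The receptor gene Bmpr2 was at 100 to 108, 98 to 145 and 108 to 125 in the 3 groups, and the co-receptor Eng at 149 to 190, 148 to 194 and 169 to 236.

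Markers of other cell types that a piece of heart could hold were summed for each library. Epicardial and mesothelial markers, which lie on the atrial and ventricular surface, summed to 8 to 13, 8 to 17 and 12 to 16 in the 3 groups. Among nerve markers, Dbh, which encodes the noradrenaline-making enzyme of sympathetic nerves, fell from 3, 4 and 4 in wild type to being listed at 0 in all 3 saline mutants (limma adjusted p 0.0014, but 0.131 with a pseudocount of 0.1), with 1, 2 and 2 in treated mutants. Among smooth muscle genes Eln rose from 66 to 93 in wild type to 166 to 308 in saline mutants (limma adjusted p 0.00317) and Acta2 fell from 189 to 328 to 117 to 118 (limma adjusted p 0.00721, but 0.0661 without the 3 libraries with Xist), and the sum over 5 markers overlapped between groups, at 294 to 463, 315 to 446 and 327 to 384. Adipocyte and lung markers were not analysed here. The part of nerve content or of chamber in the Kcnj3 result was not tested.

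Over the 9 libraries, the genes most like Kcnj3 among 8783 with a mean value of at least 10, by Pearson's r of log2(value + 1), were Dglucy (0.99), Crhr2 (0.99), Asb14 (0.99), Tspan7 (0.98) and A530016L24Rik (0.98). These correlations span 3 groups that differ and so follow the group means, and they are given as a description. Their lower values in saline mutants than in wild type, by -0.47 (Tspan7) to -2.45 (A530016L24Rik) on the log2 scale, follow from that choice and carry no test. Crhr2, the urocortin receptor gene of heart muscle, was at 26, 25 and 25, then 7, 8 and 5, then 12, 15 and 15 in wild type, saline mutants and treated mutants. Asb14, of the ankyrin repeat and SOCS box family, was at 78, 83 and 89, then 42, 43 and 41, then 61, 67 and 60. By the same measure Mybpc3 had r of 0.95 with Kcnj3, Kcnip2 0.98, Kcnj5 0.92 and Stard10 0.90, while Myl4 had -0.91 and Nppa -0.95. The genes most like the index of Myl4 and Stard10 were Cd164 (0.90), Scamp1 (0.89), Rgmb (0.87), Efnb2 (0.85) and Man1a (0.85), none of them among the 5 closest to Kcnj3. Myl4 and Stard10 differed in opposite directions, so their mean could hardly be closest to the same genes as Kcnj3. Nothing is read from that absence.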

How the data were processed

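PolyA RNA of 9 mouse heart samples was sequenced, and the authors deposited 1 full table for each of 3 comparisons. The deposited per-library values are a score: whole numbers on a per-million scale whose unit no header names, so depth is unknown and precision rests on 3 libraries per group. The deposited mean is a signal over libraries, the deposited log2 fold changes are the authors' own, and of the deposited p-value columns the one headed as adjusted equals the unadjusted normal p; neither was used. The submitters' processing notes name mm10, HISAT2, HTSeq and DESeq2, without roles.

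Tables were joined by symbol (15779 genes), and no value differed between tables. Each comparison was fitted with limma 3.58.1 (R 4.3.3) on log2(value + 1), for genes with a mean of at least 1 over the 6 libraries, with residual variances no lower than rounding gives and the prior taken from genes with a mean of at least 30, and Benjamini-Hochberg adjustment over all genes tested. A fold change on this scale understates that of low genes. The fit was tested on simulated data. The design text and labels gave the groups. The planned index of 6 atrial members was reduced to Myl4 and Stard10, and the planned adjustment over 8 correlations to 3. Correlations and ratios used Python 3.11.15 with scipy 1.17.1. Genes outside the members were named if called in a list, among the 2 highest of a list, or among the 5 most like Kcnj3 or the index; a few further list genes are given by level and were chosen after their values were seen. The members, lists and tests were chosen with earlier results of these data known. Some genes of the lists for the sinus node and for nerve cells, and the sums over those lists, are not reported here.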

Additional observations from a re-analysis of the deposited data

How the results depend on the processing

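Of the alternatives for the 3 differences in Kcnj3 minus the index, 33 moved by less than the spread between replicates. Saline mutant minus wild type was -2.04, and it was -3.44 with an index of Myl4 alone, -0.65 with Stard10 alone and -2.68 with the 9 other atrial genes. Treated minus saline mutant was 1.19, and 1.82 and 0.56 with Myl4 and Stard10 alone. Treated mutant minus wild type was -0.85, and -1.04 with a pseudocount of 0.1, -1.62 with Myl4 alone, -0.080 with Stard10 alone and -1.27 with the 9 genes. The indices of Stard10 alone and of the 9 genes were added after the data were seen. The cause of these shifts was not tested, beyond the opposite direction of Myl4 and Stard10.

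The within-group correlations of Myl4 and Stard10 (0.23) ran from -0.37 to 0.50 when 1 library was left out, with -0.37 without saline mutant replicate 2 and -0.28 without saline mutant replicate 3, and that of Myl4 was -0.58 without the 2 farthest libraries. That of Kcnj3 (-0.49) was 0.060 without the 2 farthest and ran from -0.74 to -0.22 leaving out 1 library. That of Kcnj5 (-0.39) was 0.17 with Myl4 alone and ran from -0.70 to -0.19 leaving out 1 library; it passed the threshold only without treated replicate 3 (-0.70, exact permutation p 0.0139, unadjusted). The index of the atrial sarcomere members reduced to Myl4 alone, and the correlation of Stard10 without the 2 farthest libraries could not be computed, since Myl4 had no spread left.

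The count of called genes in saline mutants against wild type (1050) ran from 506 to 1029 leaving out 1 library (506 without saline mutant replicate 2, 609 and 640 without wild type replicates 1 and 3, 688 without saline mutant replicate 3) and was 556 without the 3 libraries with Xist. In treated against saline mutants (2) it was 6 with a minimum mean of 10, 10 with median-of-ratios or upper-quartile scaling, 32 with limma's own variance trend, 14 when the prior came from all genes and 13 with all 9 libraries in 1 fit, and ran from 2 to 8 leaving out 1 library. In treated mutants against wild type (134) it was 86 with no filter, 77 with the variance trend, 243 with that prior, 239 with all 9 libraries and 9 without the 3 libraries with Xist, and ran from 1 (without wild type replicate 1) to 133 leaving out 1 library. The causes were not tested.

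Whether replicate numbers pair the samples was not tested. After removal of group means, same-numbered libraries correlated at -0.23, -0.10 and -0.37 in saline mutants against wild type. They correlated at -0.07, 0.20 and 0.12 in treated against saline mutants, and at 0.57, 0.15 and 0.03 in treated mutants against wild type. Differently numbered libraries ran from -0.07 to 0.28, from -0.26 to 0.07 and from -0.39 to 0.34 in the same order. With a replicate block the counts of called genes were 819, 30 and 35.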
